A study of Homo sapiens with 6 samples.

Results

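The integrated stress response was examined through 31 genes, namely ATF4, the kinases and phosphatase subunits that act on eIF2, and enzymes and effectors known as ATF4 targets. They were chosen by name, with earlier results of these data known, and their symbols were matched to the Ensembl identifiers of the count files. All 31 were found among 60483 identifiers, and 29 passed the filter on low counts, which left 15025 genes to test. The remaining pair, NUPR1 and FGF21, is given as counts.

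The cells were HepG2, an established human hepatocellular carcinoma line. Those transfected with an siRNA against FTO, an enzyme that removes methyl groups from adenosines in RNA, gave 3 libraries (FTO siRNA 1, 2 and 3). Those transfected with a control siRNA gave 3 more (control siRNA 1, 2 and 3), and the comparison asks which transcripts change when FTO is reduced. All cells were grown in RPMI-1640 medium with fetal bovine serum, and total RNA was sequenced. No source used here gives the siRNA sequence, its dose or the interval before harvest. Whether libraries of 1 group stem from separate cultures is not stated in the labels, so p-values measure the spread between these libraries, which may be technical. All libraries came from 1 line, and in bulk RNA fewer cells of a kind and less RNA per cell cannot be told apart.

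In the integrated stress response, kinases that sense different stresses phosphorylate the alpha subunit of the initiation factor eIF2, which slows most protein synthesis. Translation of a few mRNAs, ATF4 among them, then increases, and ATF4 protein activates genes for amino acid synthesis and transport, redox balance and feedback control. The response is controlled largely at the levels of phosphorylation and translation, neither of which RNA sequencing measures. In liver cells it is known for responses to amino acid shortage, stress of the endoplasmic reticulum and mitochondrial damage.

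Total counts lay between 15713279 and 18390953 per library, and 3 counts, used as the floor of detection, equal 0.163 to 0.191 CPM, the count scaled to the library total. The CPM values of genes are scaled further by the trimmed mean of M values. FTO mRNA was at 11.2, 14.5 and 5.21 CPM in FTO siRNA 1, 2 and 3, against 40.8, 37.96 and 38.8 CPM in control siRNA 1, 2 and 3. It averaged 10.3 ± 4.69 CPM with FTO siRNA and 39.2 ± 1.47 CPM with control siRNA (SD, n = 3 each), or 26.3% of control (log2 fold change -1.93 ± 0.32, adjusted p = 0.00932, edgeR quasi-likelihood test). FTO siRNA 3, the library with the lowest FTO level, stood apart from FTO siRNA 1 and 2: on the second principal component, which held 25.7% of the variance, it lay at 52.7, against -40.1 and -22.7 for the other FTO siRNA libraries. Calls of the stress response genes are given with and without it. The hepatocyte markers, ALB and AFP among them, were all detected, with summed levels of 16947 to 30012 CPM in FTO siRNA and 24330 to 34891 CPM in control siRNA libraries, and 0 of 14 passed the test in either direction (1 was higher and 2 were lower at an unadjusted p under 0.05, and DESeq2 and limma-voom each called 0 higher and 1 lower). Without FTO siRNA 3, 9 of these 14, or 64.3%, were lower, against a background of 14.1% in the same fit. With all libraries the log2 fold changes were negative for 13 of the 14, with a median of -0.36. Markers of other cells differed by list, set against a background of 7.53% of all tested genes called higher. A marker could pass the low-count filter through 1 group alone, so these counts of calls are descriptive only. Of 9 tested immune markers 7 were higher. Sums over the list were 82.7 to 116 CPM in FTO siRNA against 51.7 to 102 CPM in control siRNA libraries. LYZ made up most of these sums, at 59.8 to 83.5 CPM in FTO siRNA and 46.7 to 97.3 CPM in control siRNA libraries, and without LYZ they were 22.9 to 32.5 CPM in FTO siRNA against 4.44 to 5.01 CPM in control siRNA libraries. Of 7 tested fibroblast markers 3 were higher, with sums of 277 to 614 CPM in FTO siRNA against 117 to 203 CPM in control siRNA libraries. TAGLN held the most counts of this list, 16806 over all libraries, followed by LUM with 4177. Of 4 tested markers of cervical and kidney lines 2 were higher, with sums of 10.9 to 16.8 CPM in FTO siRNA against 5.86 to 6.46 CPM in control siRNA libraries, and the 1 tested endothelial marker was not called, with list sums of 15 to 24.1 CPM in FTO siRNA against 20.3 to 25.6 CPM in control siRNA libraries. In all control siRNA libraries 2 of 15 immune, 4 of 11 fibroblast, 4 of 7 endothelial and 3 of 8 cervical and kidney line markers were at 0, among them MS4A1, DCN, VWF and KRT5. The part of these markers in the results on the stress response genes was not tested.

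Of the 29 tested stress response genes, 4 were higher after FTO siRNA: PPP1R15A, SESN2, TRIB3 and STC2. That is 13.8%, against a background of 7.53% of all tested genes called higher by the same rule (edgeR quasi-likelihood test, adjusted p under 0.05 over all tested genes). The list was chosen with earlier results of these data known, so a share above the background is no independent support. Lower calls numbered 0 of 29, against a background of 3.83%, and 0 were lower at an unadjusted p under 0.05. DESeq2 called 9 higher and 0 lower, against backgrounds of 9.85% and 6.85% in its own fit. With limma-voom 2, or 6.9%, were higher and 0 lower, against backgrounds of 6.72% and 3.75%, so that its count of higher genes was near the background. The estimated log2 fold changes were positive for 24 and negative for 5 of the 29, and their median was 0.33, against 0.04 over all tested genes. Every FTO siRNA library lay above every control siRNA library for 11 of the 29, against a background of 19.2% of tested genes. The reverse held for 1, against a background of 17.4%, and the groups overlapped for 17.

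**Figure D1:**
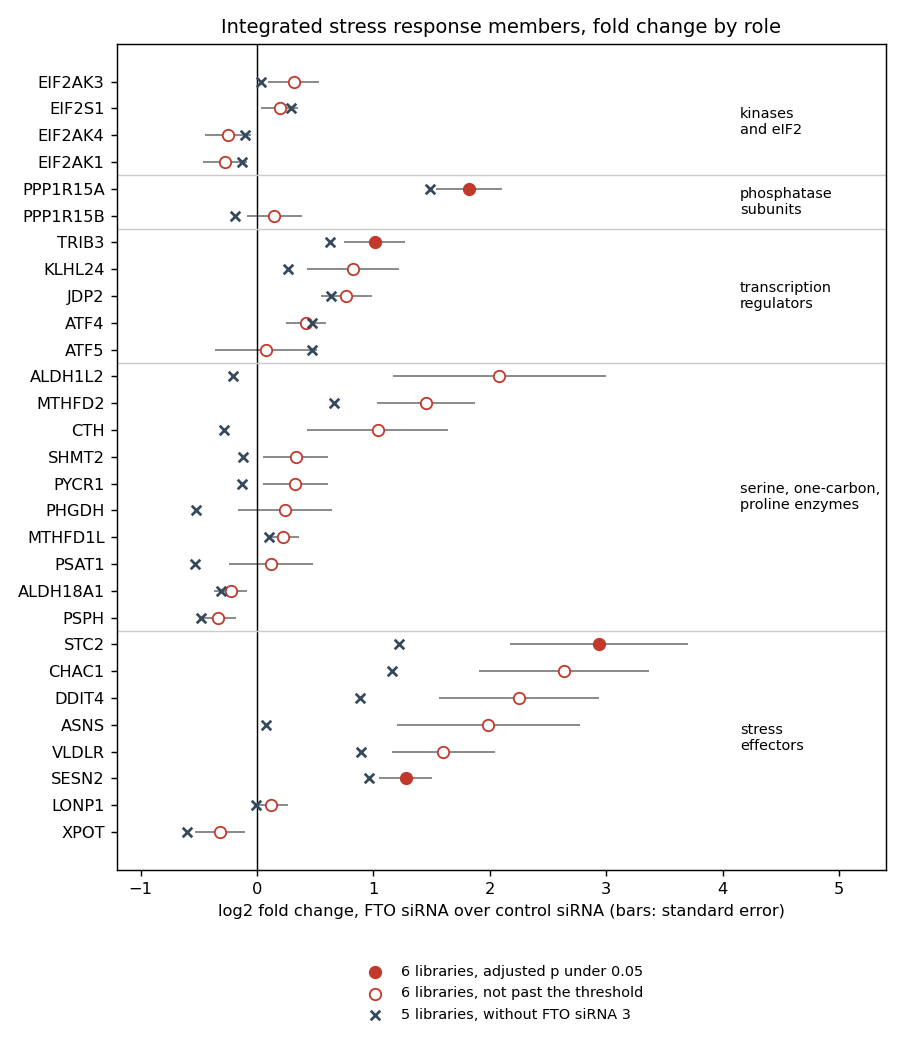
Log2 fold change (FTO siRNA over control siRNA) of the 29 tested genes with its standard error, arranged by role. Filled circles passed an adjusted p of 0.05, open circles did not, and crosses give the value without FTO siRNA 3. PPP1R15A at 1.82, SESN2 at 1.28, TRIB3 at 1.01 and STC2 at 2.94 passed, while the kinases and eIF2 alpha lie close to 0.

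Expression of the listed kinases that start the response, and of their substrate, gave 0 calls among 4 tested genes, with a median log2 fold change of -0.03 (edgeR, with 0 also at an unadjusted p under 0.05, by DESeq2 and by limma-voom). EIF2AK1 encodes HRI, the kinase that responds to heme shortage and to mitochondrial stress. It was at 278, 266 and 178 CPM in FTO siRNA 1, 2 and 3, against 285, 288 and 299.9 CPM in control siRNA 1, 2 and 3 (log2 fold change -0.27 ± 0.19, adjusted p = 0.381, edgeR). All FTO siRNA libraries lay below all control libraries, with FTO siRNA 3 well below the rest. EIF2AK3 encodes PERK, the kinase of the endoplasmic reticulum, and was at 18.5, 24.1 and 33.7 CPM in FTO siRNA 1, 2 and 3, against 20.3, 19.9 and 21.2 CPM in control siRNA 1, 2 and 3 (log2 fold change 0.31 ± 0.22, adjusted p = 0.397, edgeR). Only FTO siRNA 2 and 3 exceeded the control libraries. EIF2AK4 encodes GCN2, the sensor of uncharged tRNA, and was at 43.8, 51.8 and 31.99 CPM in FTO siRNA 1, 2 and 3, against 44.8, 57.8 and 49.02 CPM in control siRNA 1, 2 and 3 (log2 fold change -0.25 ± 0.20, adjusted p = 0.455, edgeR). Here the groups overlapped and FTO siRNA 3 was the lowest library. EIF2S1, which encodes the eIF2 alpha subunit that these kinases phosphorylate, was at 184, 164 and 131 CPM in FTO siRNA 1, 2 and 3, against 133, 137 and 149 CPM in control siRNA 1, 2 and 3 (log2 fold change 0.19 ± 0.16, adjusted p = 0.471, edgeR). FTO siRNA 1 and 2 were the highest libraries for it and FTO siRNA 3 the lowest. The exons of EIF2AK1 and EIF2S1 overlap those of AIMP2 and ATP6V1D on the opposite strand, and no source used here says if the counting used strand.

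The smallest p-value of the 29 genes was in the feedback arm. PPP1R15A encodes GADD34, the stress-inducible subunit that directs protein phosphatase 1 to eIF2 alpha and so reverses the kinases. It was at 503, 472 and 836 CPM in FTO siRNA 1, 2 and 3, against 120.2, 200.4 and 192 CPM in control siRNA 1, 2 and 3. The lowest FTO siRNA library was far above the highest control library, and FTO siRNA 3 was the highest of all. PPP1R15A averaged 604 ± 202 CPM with FTO siRNA and 171 ± 44.2 CPM with control siRNA (SD, n = 3 each; log2 fold change 1.82 ± 0.28, adjusted p = 0.0078, edgeR quasi-likelihood test). Without FTO siRNA 3 it was 1.48 ± 0.19 with an adjusted p of 0.000978 in the same test, and it passed under every alternative run. Its constitutive counterpart PPP1R15B was at 60.7, 82.03 and 122 CPM in FTO siRNA 1, 2 and 3, against 80.97, 77.9 and 80.4 CPM in control siRNA 1, 2 and 3 (log2 fold change 0.15 ± 0.23, adjusted p = 0.723, edgeR). Its control libraries lay within a narrow band, with FTO siRNA 1 below that band and FTO siRNA 2 and 3 above it.

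The share of PPP1R15A in the summed counts per kilobase of both subunits was 94.8, 92.7 and 93.7% in FTO siRNA 1, 2 and 3, against 76.5, 84.97 and 84.03% in control siRNA 1, 2 and 3. The means were 93.7% ± 1.07 with FTO siRNA and 81.8% ± 4.62 with control siRNA (SD, n = 3 each), a difference of 11.9 percentage points. All FTO siRNA libraries lay above all control libraries, and the exact two-sided permutation test gave p = 0.1, the smallest that 3 against 3 libraries allow (adjusted 0.3 over the 9 shares compared). Within the 4 eIF2 kinases, EIF2AK1 held 79.99, 75.4 and 70.3% with FTO siRNA against 77.6, 75.4 and 78.6% with control siRNA (exact permutation p = 0.6, adjusted 0.771). EIF2AK3 held 5.12, 6.56 and 12.8% with FTO siRNA against 5.32, 5.01 and 5.34% with control siRNA (exact permutation p = 0.3, adjusted 0.45). HRI mRNA was the most abundant kinase mRNA per kilobase in every library, and the share of PERK mRNA was far higher in FTO siRNA 3 than in any other library (a group difference of 2.93 points with it and 0.62 without it). EIF2AK4 held 10.2, 11.9 and 10.3% with FTO siRNA against 9.92, 12.3 and 10.4% with control siRNA (exact permutation p = 0.8, adjusted 0.9). EIF2AK2 held 4.65, 6.13 and 6.63% with FTO siRNA against 7.14, 7.29 and 5.65% with control siRNA (exact permutation p = 0.3, adjusted 0.45).

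**Figure D2:**
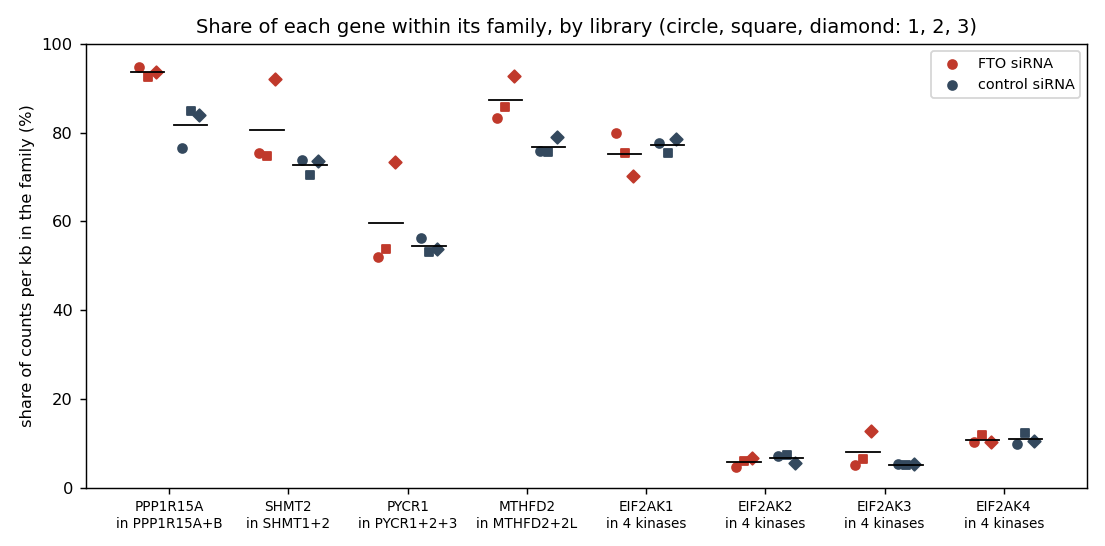
Share in percent of a gene in the counts per kilobase of its family, 1 point per library with bars for means, FTO siRNA left of control siRNA and ALDH1L2 not drawn. PPP1R15A lies between 92.7% and 94.8% in FTO siRNA libraries and between 76.5% and 85.0% in control siRNA libraries, while EIF2AK1 overlaps between the groups.

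Among the transcription regulators, 1 of 5 tested genes, TRIB3, was called higher, or 20% against a background of 7.53%. The median log2 fold change was 0.77. This role was drawn broadly: TRIB3 is a pseudokinase and KLHL24, also in it, an adaptor of a ubiquitin ligase. ATF4 mRNA itself was at 745, 587 and 554 CPM in FTO siRNA 1, 2 and 3, against 467, 468 and 475 CPM in control siRNA 1, 2 and 3. All FTO siRNA libraries lay above all control libraries, which were nearly level, and FTO siRNA 3 was the lowest of its group. The difference did not pass (log2 fold change 0.42 ± 0.17, adjusted p = 0.149, edgeR quasi-likelihood test), whereas without FTO siRNA 3 it did (0.47 ± 0.12, adjusted p = 0.0171 in the same test). Of the 50-base words of the longest ATF4 transcript, 22.9% also occur in another gene. The related pseudogene ATF4P3 held 320 counts over all libraries against 55310 for ATF4.

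TRIB3, a pseudokinase that binds and restrains ATF4, was at 83.6, 84.3 and 154 CPM in FTO siRNA 1, 2 and 3, against 64.5, 49.3 and 46.1 CPM in control siRNA 1, 2 and 3. All FTO siRNA libraries exceeded all control libraries, with FTO siRNA 3 highest. It averaged 107 ± 40.6 CPM with FTO siRNA and 53.3 ± 9.84 CPM with control siRNA (SD, n = 3 each; log2 fold change 1.01 ± 0.26, adjusted p = 0.0421, edgeR), and without FTO siRNA 3 the log2 fold change was 0.63 ± 0.15 (adjusted p = 0.0126). The call was lost without FTO siRNA 2 (adjusted p = 0.0572) and without control siRNA 1, 2 or 3 (0.101, 0.162 and 0.155). It was also lost with library totals alone, limma-voom, a fold minimum of 1.2 and GC and length trends removed (adjusted p = 0.0616, 0.0507, 0.072 and 0.135). The replicate number as a block ended the call too.

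JDP2, a repressor of the AP-1 family, had 35.1 to 48.2 CPM with FTO siRNA against 17.5 to 28.98 CPM with control siRNA, and did not pass (log2 fold change 0.77 ± 0.22, adjusted p = 0.06, edgeR). Without FTO siRNA 3 it was called higher. ATF5, a relative of ATF4 that is known to activate mitochondrial stress genes, was at 110.2, 97.5 and 24.99 CPM in FTO siRNA 1, 2 and 3, against 69.2, 69.3 and 81.9 CPM in control siRNA 1, 2 and 3. FTO siRNA 1 and 2 were the highest libraries and FTO siRNA 3 by far the lowest, so that the log2 fold change was 0.08 ± 0.44 (adjusted p = 0.929, edgeR) with FTO siRNA 3 and 0.47 ± 0.12 (adjusted p = 0.017) without it. ATF5 overlaps NUP62 on the opposite strand, which held 16217 counts over all libraries against 7432 for ATF5. KLHL24, a substrate adaptor of an E3 ubiquitin ligase, was at 15.7, 28.97 and 52.1 CPM with FTO siRNA against 24.01, 14.3 and 16.4 CPM with control siRNA, and its groups overlapped (adjusted p = 0.218, edgeR). NUPR1, a small chromatin-associated stress protein, was too low to test, with 7, 5 and 32 counts in FTO siRNA 1, 2 and 3 against 2, 10 and 3 counts in control siRNA 1, 2 and 3.

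**Figure D3:**
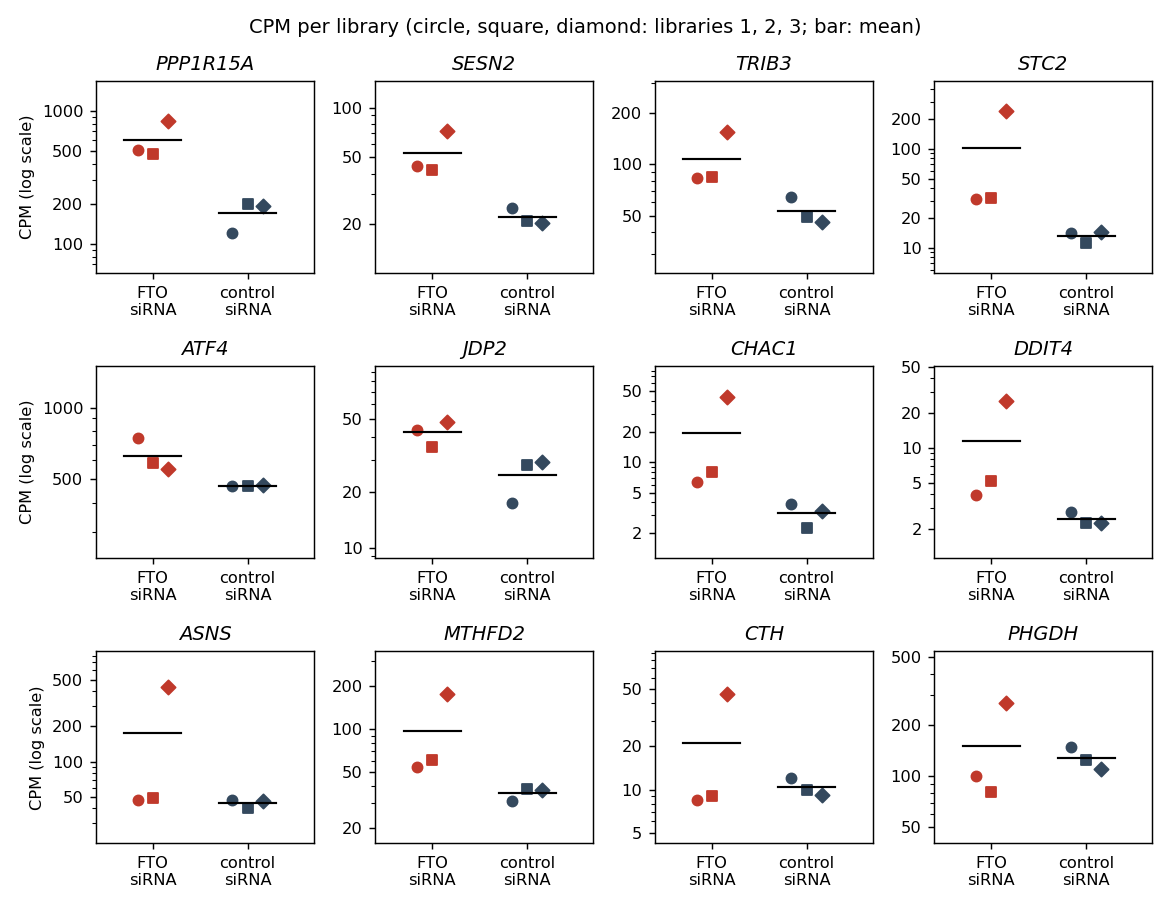
TMM-scaled CPM (log axis) of 12 genes in each library, FTO siRNA left of control siRNA, with bars for means. PPP1R15A, SESN2, TRIB3 and STC2 are higher in every FTO siRNA library than in every control library, and ASNS stands apart in FTO siRNA 3 at 436 CPM.

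The 10 enzymes of serine, one-carbon, proline and transsulfuration metabolism gave 0 calls in either direction, with a median log2 fold change of 0.29 (edgeR, with 1 higher and 0 lower at an unadjusted p under 0.05, 1 and 0 by DESeq2 and 0 and 0 by limma-voom). FTO siRNA 3 was the highest of the 6 libraries for 8 of the 10, against a background of 29.9% of tested genes. Serine is made in 3 steps. PHGDH catalyses the first and was at 101, 80.6 and 271 CPM with FTO siRNA against 149, 124 and 111 CPM with control siRNA. PSAT1, which catalyses the second, was at 137, 154 and 385 CPM with FTO siRNA against 230.1, 212 and 179 CPM with control siRNA. In both genes FTO siRNA 3 was far above the control libraries, and FTO siRNA 1 and 2 were below all of them. PSPH, the final phosphatase, was at 117, 111 and 143 CPM with FTO siRNA against 159, 169 and 139 CPM with control siRNA, and FTO siRNA 3 fell within the range of the controls. With all libraries none of the 3 passed (adjusted p = 0.745, 0.861 and 0.204, edgeR). Without FTO siRNA 3 all 3 were lower, with log2 fold changes of -0.52 ± 0.15 for PHGDH, -0.53 ± 0.13 for PSAT1 and -0.48 ± 0.12 for PSPH (adjusted p = 0.0268, 0.0158 and 0.0152, edgeR). Of the 50-base words of PSPH 8.36% occur in another gene, and the pseudogene PSPHP1 held 1208 counts over all libraries against 14059 for PSPH.

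SHMT2, MTHFD2, MTHFD1L and ALDH1L2 act in the mitochondrial folate pathway that takes up carbon units from serine. MTHFD2, a dehydrogenase and cyclohydrolase, had 54.0 to 176 CPM with FTO siRNA against 31.3 to 37.8 CPM with control siRNA. Its groups did not overlap, yet it missed the threshold (log2 fold change 1.45 ± 0.42, adjusted p = 0.0589, edgeR), which it passed without FTO siRNA 3 (0.66 ± 0.13, adjusted p = 0.00594). MTHFD1L, which makes formate, had 77.3 to 92.4 CPM with FTO siRNA against 67.2 to 74.1 CPM with control siRNA, again without overlap (log2 fold change 0.22 ± 0.14, adjusted p = 0.336, edgeR). SHMT2, the hydroxymethyltransferase that opens the pathway, was at 246, 237 and 489 CPM with FTO siRNA against 281, 237 and 254 CPM with control siRNA. ALDH1L2, which oxidises formyl-tetrahydrofolate, was at 2.73, 2.90 and 34.4 CPM with FTO siRNA against 3.74, 2.86 and 2.96 CPM with control siRNA. For both genes FTO siRNA 1 and 2 were close to the controls and FTO siRNA 3 was the highest library (adjusted p = 0.476 for SHMT2 and 0.18 for ALDH1L2, edgeR). ALDH1L2 overlaps C12orf45 on the opposite strand, which held 923 counts over all libraries against 919 for ALDH1L2.

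Proline synthesis was represented by ALDH18A1 and PYCR1. ALDH18A1, which catalyses the first step, averaged 127 ± 9.40 CPM with FTO siRNA and 148 ± 14.6 CPM with control siRNA (SD, n = 3 each; adjusted p = 0.339, edgeR). PYCR1, which catalyses the last step in mitochondria, was at 48.7, 43.3 and 93.8 CPM with FTO siRNA against 53.03, 46.97 and 47.9 CPM with control siRNA (adjusted p = 0.476, edgeR). CTH, which releases cysteine from cystathionine, was at 8.43, 8.96 and 46.1 CPM with FTO siRNA against 12.1, 9.93 and 9.12 CPM with control siRNA (adjusted p = 0.302, edgeR). PYCR1 and CTH were again highest in FTO siRNA 3, with FTO siRNA 1 and 2 near or below the controls.

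Shares within enzyme families also differed by library. MTHFD2 held 83.3, 85.8 and 92.8% of the counts per kilobase of MTHFD2 and MTHFD2L in FTO siRNA 1, 2 and 3, against 75.9, 75.6 and 79.1% in control siRNA 1, 2 and 3. SHMT2 held 75.4, 74.7 and 92.1% of the total with its cytosolic counterpart SHMT1 in FTO siRNA libraries, against 73.96, 70.4 and 73.6% in control siRNA libraries. In neither did the groups overlap, and both reached the exact permutation p of 0.1 (adjusted 0.3). The difference in the SHMT2 share was 8.07 points with all libraries and 2.40 points without FTO siRNA 3. PYCR1 held 52.04, 53.7 and 73.4% of the PYCR total with FTO siRNA against 56.3, 53.2 and 53.9% with control siRNA (exact permutation p = 0.9, adjusted 0.9). ALDH1L2 held 89.9, 90.5 and 99.5% of the total with ALDH1L1 with FTO siRNA against 100, 96.6 and 100% with control siRNA (exact permutation p = 0.2, adjusted 0.45), where both genes are low.

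The stress effectors had 2 higher calls, SESN2 and STC2, among 8 tested genes, or 25% against a background of 7.53%. Their median log2 fold change, 1.80, was the largest of the 5 roles, and it was 0.89 without FTO siRNA 3. At an unadjusted p under 0.05, 6 of the 8 were higher, against a background of 16.4%. DESeq2 called 5 higher and limma-voom 1, against backgrounds of 9.85% and 6.72%. SESN2, a sensor of leucine that restrains the growth kinase complex mTORC1, was at 44.6, 42.2 and 72.2 CPM in FTO siRNA 1, 2 and 3, against 24.8, 20.8 and 20.1 CPM in control siRNA 1, 2 and 3. The groups were well apart, and FTO siRNA 3 was the highest library. It averaged 53.02 ± 16.6 CPM with FTO siRNA and 21.9 ± 2.56 CPM with control siRNA (SD, n = 3 each; log2 fold change 1.28 ± 0.23, adjusted p = 0.012, edgeR). The value without FTO siRNA 3 was 0.96 ± 0.13 (adjusted p = 0.0014). Without control siRNA 1, 2 or 3 the adjusted p was 0.0556, 0.0667 and 0.0577, past the threshold in none of these.

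STC2, a secreted glycoprotein induced by stress of the endoplasmic reticulum, was at 30.99, 32.00 and 241 CPM in FTO siRNA 1, 2 and 3, against 14.1, 11.1 and 14.6 CPM in control siRNA 1, 2 and 3. FTO siRNA 1 and 2 were about alike and above all controls, and FTO siRNA 3 was at 7.67 times the mean of FTO siRNA 1 and 2. The log2 fold change was 2.94 ± 0.77 (adjusted p = 0.0431, edgeR) with all libraries and 1.22 ± 0.15 (adjusted p = 0.000848) without FTO siRNA 3. The call was lost without control siRNA 1, 2 or 3 (adjusted p = 0.153, 0.155 and 0.121), and with library totals alone, limma-voom and a fold minimum of 1.2 (0.055, 0.1 and 0.057).

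CHAC1, which degrades glutathione, had 6.38 to 44.1 CPM with FTO siRNA against 2.25 to 3.86 CPM with control siRNA (log2 fold change 2.64 ± 0.73, adjusted p = 0.0524, edgeR). DDIT4, known as REDD1 and like SESN2 an inhibitor of mTORC1 signalling, had 3.90 to 25.3 CPM with FTO siRNA against 2.23 to 2.79 CPM with control siRNA (log2 fold change 2.25 ± 0.69, adjusted p = 0.0698, edgeR). VLDLR, a lipoprotein receptor, had 11.1 to 33.9 CPM with FTO siRNA against 4.82 to 8.69 CPM with control siRNA (log2 fold change 1.60 ± 0.44, adjusted p = 0.0513, edgeR). In none of these 3 did the groups overlap, and each missed the threshold with all libraries and passed without FTO siRNA 3, at log2 fold changes of 1.16 ± 0.25, 0.88 ± 0.25 and 0.89 ± 0.24 (adjusted p = 0.00876, 0.0246 and 0.021, edgeR).

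ASNS, which makes asparagine and is a classical ATF4 target, was at 47.5, 48.7 and 436 CPM in FTO siRNA 1, 2 and 3, against 47.5, 40.3 and 46.3 CPM in control siRNA 1, 2 and 3. FTO siRNA 1 and 2 lay at the upper end of the controls, and FTO siRNA 3 was at 9.07 times the mean of FTO siRNA 1 and 2 (log2 fold change 1.99 ± 0.78, adjusted p = 0.141, edgeR). The mean of FTO siRNA 1 and 2 was 1.07 times the control mean. XPOT, the exporter of tRNA from the nucleus, was at 163, 189 and 281 CPM with FTO siRNA against 294, 250.3 and 244 CPM with control siRNA, with FTO siRNA 1 and 2 below all controls (log2 fold change -0.31 ± 0.21, adjusted p = 0.378, edgeR). It was lower without FTO siRNA 3 (-0.60 ± 0.13, adjusted p = 0.00854). LONP1, the protease of the mitochondrial matrix, averaged 120.3 ± 15.4 CPM with FTO siRNA and 111 ± 2.79 CPM with control siRNA (SD, n = 3 each; adjusted p = 0.628, edgeR), and overlaps RPL36 on the opposite strand. FGF21, a hormone that the liver secretes under nutrient stress, had 0, 1 and 63 counts in FTO siRNA 1, 2 and 3 against 0 counts in each control siRNA library. Its summed level in FTO siRNA libraries was at least 6.72-fold higher than a floor of 3 counts in each control library, and nearly all of it came from FTO siRNA 3.

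Across roles, FTO siRNA 3 stood apart for many of these genes. It was the highest of the 6 libraries for 21 of the 29 tested genes and the lowest for 4, against backgrounds of 29.9% and 28.1% of tested genes. The median ratio of FTO siRNA 3 to the mean of FTO siRNA 1 and 2 was 1.72, against 1.01 over all tested genes. It lay at least 2-fold above each other library for 8 of 29, a measure chosen after the values were seen, against a background of 3.21%. These were ALDH1L2, ASNS, STC2, CHAC1, DDIT4, CTH, MTHFD2 and VLDLR, with ratios to the mean of FTO siRNA 1 and 2 of 12.2, 9.07, 7.67, 6.18, 5.56, 5.31, 3.09 and 2.79. None of the 8 was a kinase, a phosphatase subunit or a transcription regulator, and ATF5 went the other way with a ratio of 0.240. ATF4 mRNA, at 554 CPM in FTO siRNA 3 against 745 and 587 CPM in FTO siRNA 1 and 2, was lowest of its group there.

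**Figure D4:**
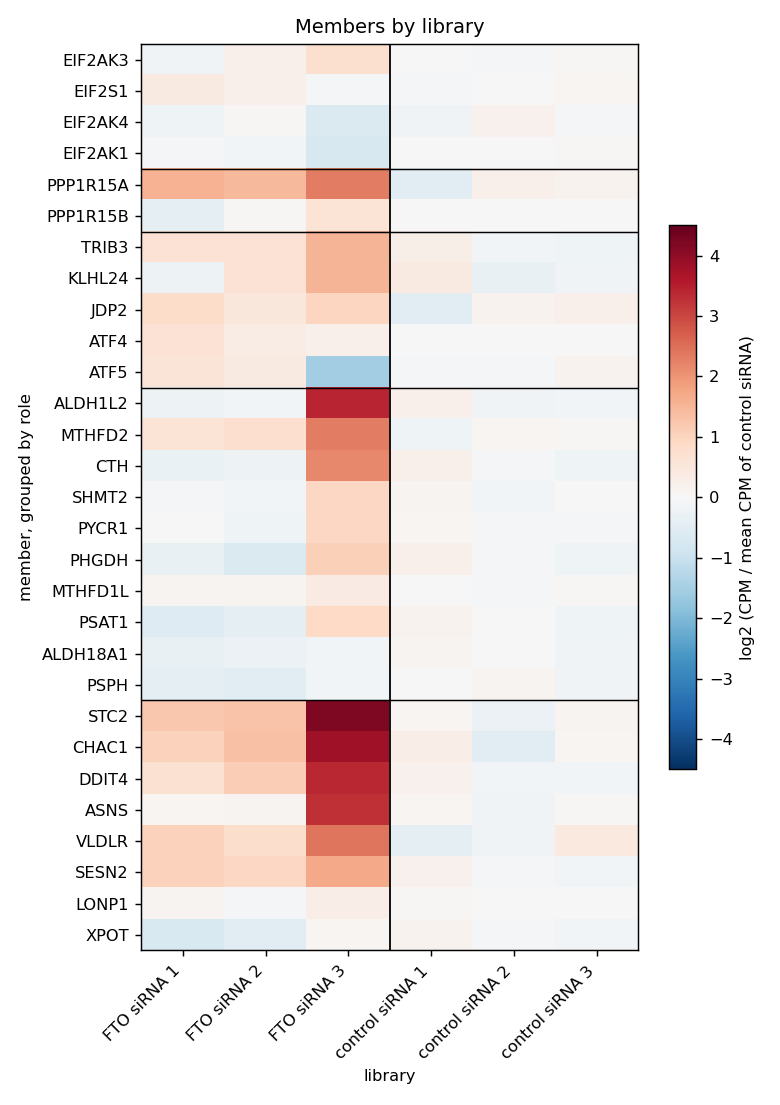
Log2 ratio of each library to the control mean for the 29 tested genes, arranged by role, with FTO siRNA libraries left of control siRNA libraries. In the FTO siRNA 3 column ASNS, ALDH1L2, STC2 and CHAC1 stand out as high and ATF5 as low, while PPP1R15A is high in all FTO siRNA columns.

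With FTO siRNA 3 left out, 11 of the 29 genes were higher and 4 were lower, or 37.9% and 13.8%, against backgrounds of 15.9% and 14.1% in the same fit. The 11 held all 4 genes called with every library, together with ATF4, ATF5, JDP2, MTHFD2, CHAC1, DDIT4 and VLDLR. The 4 lower genes were PHGDH, PSAT1, PSPH and XPOT. By role, 4 of 5 transcription regulators and 5 of 8 stress effectors were then higher, whereas 1 of 10 enzymes was higher and 3 were lower, and 0 of 4 kinase and eIF2 genes were called (1 was higher at an unadjusted p under 0.05). The median log2 fold change of the enzymes was 0.29 with FTO siRNA 3 and -0.24 without it. For the effectors it was 1.80 with that library and 0.89 without it. Over the 29 genes it was 0.33 with it and 0.08 without it.

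Levels were ranked as CPM per kilobase of the longest transcript. By group mean ATF4 ranked first in both groups, at 312 with FTO siRNA and 233 with control siRNA. With FTO siRNA the next were PPP1R15A at 254 ± 84.7, PSAT1 at 103 ± 63.3, SHMT2 at 94.8 ± 41.97 and ASNS at 75.3 ± 95.0 (SD, n = 3), against 312 ± 50.6 for ATF4, and of neighbours in this order PPP1R15A and PSAT1 alone did not overlap by library. In FTO siRNA 3 alone PPP1R15A, at 351, lay above ATF4, at 275. The ASNS mean rested on that library, since FTO siRNA 1 and 2 averaged 20.4. With control siRNA they were PSAT1 at 94.6, SHMT2 at 75.4, PPP1R15A at 71.9 and PSPH at 71.4. The SDs of PPP1R15A and PSPH in the control group (18.6 and 7.05 CPM per kilobase) were larger than the gap between them. ALDH1L2 was the lowest tested gene in the control group, at 0.422 CPM per kilobase.

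**Figure D5:**
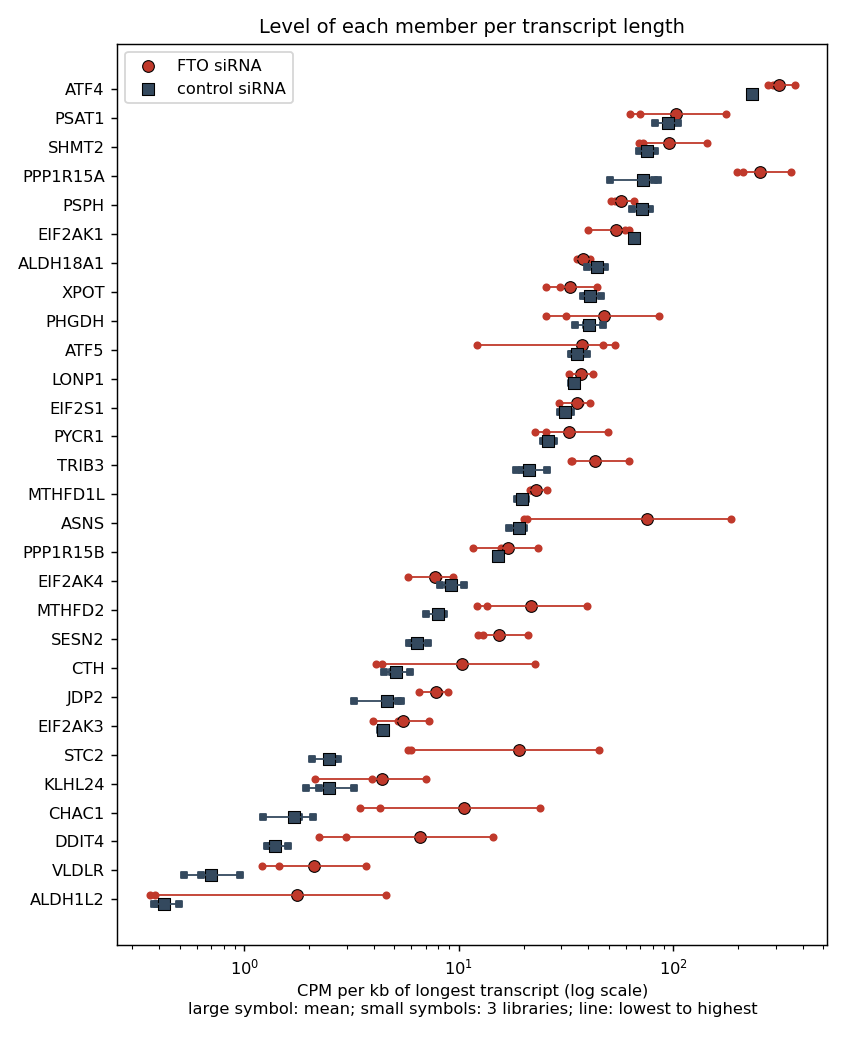
CPM per kilobase of the longest transcript (log axis) of the 29 tested genes in each library, ordered by the control mean. ATF4 has the highest mean in both groups, though PPP1R15A lies above it in FTO siRNA 3, and FTO siRNA points of PPP1R15A, STC2 and CHAC1 lie clear of the control points.

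Promoter sequences of the genes called were read from RefSeq (GRCh38.p14), as the 250 bases before the annotated start, and are shown because these genes passed the test. Windows of 250 bases before to 50 after the start were searched on both strands for 2 motifs. One was the C/EBP-ATF response element TGATGNAA, to which ATF4 is known to bind as a dimer with C/EBP proteins, and the other was the cyclic AMP response element TGACGTCA. The table held 25 of the 31 genes, and EIF2AK1, SHMT2, PSPH, NUPR1, ALDH1L2 and PYCR1 were absent from it. PPP1R15A was the 1 gene of the 25 with TGACGTCA, or 4%, against 2.25% of all genes in the table and 1.85% of all windows. Capitals mark that match, 58 bases before the start. SESN2, TRIB3 and STC2 held neither motif in these windows. TRIB3 has several annotated starts, all of them searched, and only the window before the first is printed.
PPP1R15A (GRCh38.p14, chr19:48872171-48872420, plus strand): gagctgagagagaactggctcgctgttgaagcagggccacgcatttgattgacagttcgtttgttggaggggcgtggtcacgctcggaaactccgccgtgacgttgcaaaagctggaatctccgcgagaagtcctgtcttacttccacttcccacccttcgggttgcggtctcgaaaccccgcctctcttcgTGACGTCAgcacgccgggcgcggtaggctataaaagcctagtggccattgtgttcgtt
SESN2 (GRCh38.p14, chr1:28259268-28259517, plus strand): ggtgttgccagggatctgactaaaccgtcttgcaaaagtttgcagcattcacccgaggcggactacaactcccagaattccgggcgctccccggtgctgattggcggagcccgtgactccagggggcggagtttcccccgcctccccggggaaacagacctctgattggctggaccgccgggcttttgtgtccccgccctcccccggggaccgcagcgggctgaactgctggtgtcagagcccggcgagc
TRIB3 (GRCh38.p14, chr20:381045-381294, plus strand): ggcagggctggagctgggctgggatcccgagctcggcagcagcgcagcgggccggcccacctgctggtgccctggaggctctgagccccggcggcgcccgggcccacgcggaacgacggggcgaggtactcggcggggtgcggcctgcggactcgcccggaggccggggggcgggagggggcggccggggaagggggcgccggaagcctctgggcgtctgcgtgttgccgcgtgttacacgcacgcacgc
STC2 (GRCh38.p14, chr5:173328415-173328664, minus strand): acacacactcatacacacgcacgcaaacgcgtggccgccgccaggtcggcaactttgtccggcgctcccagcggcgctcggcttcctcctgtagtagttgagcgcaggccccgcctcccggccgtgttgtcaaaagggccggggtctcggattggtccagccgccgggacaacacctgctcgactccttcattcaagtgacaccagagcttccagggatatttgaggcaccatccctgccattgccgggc

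TGATGNAA or its reverse complement was found in 6 of the 25 genes, or 24%, against 4.46% of all genes in the table and 3.62% of all windows. The genes were listed in part as known ATF4 targets, so the choice of list favours such a share. They also had 37 windows for 25 genes, against 35116 windows for 27305 genes in the table. The match in capitals is shown with the 10 bases on either side, on the strand of the gene.
ASNS (GRCh38.p14, chr7:97872459-97872486, minus strand): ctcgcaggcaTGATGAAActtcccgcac
CHAC1 (GRCh38.p14, chr15:40953252-40953279, plus strand): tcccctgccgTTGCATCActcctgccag
FGF21 (GRCh38.p14, chr19:48755460-48755487, plus strand): aacaccaggaTTGCATCAgggaggagga
JDP2 (GRCh38.p14, chr14:75427996-75428023, plus strand): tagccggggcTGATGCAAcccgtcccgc
MTHFD1L (GRCh38.p14, chr6:150866347-150866374, plus strand): ccgccggctcTGATGCAAtcgcgccggg
PPP1R15B (GRCh38.p14, chr1:204412027-204412054, minus strand): ccgccccggcTGATGCAAcctcacgctg
The sites of ASNS, CHAC1, FGF21, JDP2 and PPP1R15B began 68, 209, 54, 16 and 227 bases before the start, and that of MTHFD1L 129 or 90 bases before its start or 24 after, depending on the start used. Of these 6 genes ASNS, CHAC1 and FGF21 were highest by far in FTO siRNA 3, and JDP2 and MTHFD1L had FTO siRNA libraries all above the controls by smaller margins. STC2, DDIT4, CTH, MTHFD2 and VLDLR were also at least 2-fold above each other library in FTO siRNA 3. They were searched and held no match. PPP1R15B, with a match, was at 60.7, 82.03 and 122 CPM in FTO siRNA 1, 2 and 3, and none of the 5 that were tested passed with all libraries, FGF21 being too low to test. A match of letters is a description of the sequence, and no binding was measured.

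Other genes of the pathway were read from a list chosen with earlier results of these data known, so its share of calls is no independent support. It held 33 further ATF4 and stress response genes, all of them tested. Of these 8 were higher, or 24.2% against the background of 7.53%, and 0 lower, with a median log2 fold change of 0.66 (0 were lower at an unadjusted p under 0.05; DESeq2 called 10 higher and 0 lower, limma-voom 6 and 0). The number called in either direction was 2 with GC and length trends removed and 5 with a fold minimum of 1.2. It was 1, 1 and 2 without control siRNA 1, 2 and 3. CEBPB, a partner of ATF4 on DNA, was at 87.4, 71.8 and 57.2 CPM with FTO siRNA against 33.7, 29.2 and 28.6 CPM with control siRNA (log2 fold change 1.24 ± 0.18, adjusted p = 0.00628, edgeR). SLC3A2, the heavy chain of amino acid exchangers, was at 315, 293 and 433 CPM with FTO siRNA against 153, 183 and 192 CPM with control siRNA (log2 fold change 0.98 ± 0.19, adjusted p = 0.0157, edgeR). DDIT3, which encodes the stress factor CHOP, was at 29.4, 30.2 and 22.2 CPM with FTO siRNA against 13.6, 15.8 and 15.9 CPM with control siRNA (log2 fold change 0.85 ± 0.18, adjusted p = 0.0206, edgeR), and it overlaps MARS and MBD6 on the opposite strand. SLC1A5, a glutamine transporter, was at 311, 271 and 316 CPM with FTO siRNA against 166, 167 and 207 CPM with control siRNA (log2 fold change 0.73 ± 0.15, adjusted p = 0.0206, edgeR). In these 4 genes no FTO siRNA library overlapped the controls, and CEBPB and DDIT3 were lowest of their group in FTO siRNA 3, as ATF4 was. The other genes called were GDF15, SQSTM1, ATF3 and MAP1LC3B. FTO siRNA 3 was the highest library for 28 of the 33 and at least 2-fold above each other library for 12, against backgrounds of 29.9% and 3.21%. Without that library 10, or 30.3%, were higher and 3, or 9.09%, lower, against backgrounds of 15.9% and 14.1%.

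Neighbouring functions gave few calls, where the background was 7.53% of all tested genes called higher and 3.83% called lower. Of 18 tested genes for further subunits and regulators of eIF2, eIF2B and the phosphatase, 0 were called (1 higher and 2 lower at an unadjusted p under 0.05, DESeq2 1 and 1, limma-voom 0 and 0), with a median log2 fold change of 0.04. The 1 higher was NCK1, at 0.64 ± 0.19, and the 2 lower were GCN1 and EIF2AK2, at -0.43 ± 0.15 and -0.47 ± 0.17 (adjusted p = 0.0664, 0.0957 and 0.118, edgeR). Of 16 tested chaperones and quality control genes of the endoplasmic reticulum 0 were called (0 higher and 1 lower unadjusted, DESeq2 0 and 1, limma-voom 0 and 0), with a median of -0.0041. XBP1 was listed at 0 in every library, as were the 37 mitochondrial genes. Whether this 0 reflects its expression or the counting was not tested. Of 13 mitochondrial proteases and chaperones 0 were called (2 higher and 1 lower unadjusted, DESeq2 1 and 0, limma-voom 0 and 0), with a median of -0.06. Among 20 tested further enzymes of serine, folate and proline metabolism 0 were higher (1 unadjusted, DESeq2 0 and limma-voom 0) and 3, or 15% against the background of 3.83%, were lower. Among those lower, MTR, the methionine synthase, and GLDC, of the glycine cleavage system, had log2 fold changes of -0.92 ± 0.18 and -0.59 ± 0.16 (adjusted p = 0.015 and 0.0481, edgeR). The median of the 20 enzymes was -0.36, against 0.29 for the 10 enzymes described above.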

How the data were processed

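RNA of HepG2 cells was sequenced in 6 libraries, 3 per group. Groups and replicate numbers come from the labels. The authors deposited raw counts per Ensembl gene, 1 file per library. TopHat, TopHat2 2.0.11 and HTSeq, and the builds hg19 and GRCh37, are named in the submitters' processing notes. No source used here says how reads matching several genes were handled or if strand was used, so genes with near-identical copies and genes that overlap others are uncertain. RNA was extracted with Trizol, per the labels' protocols.

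Identifiers were matched without their version to GENCODE 29 for symbols, chromosomes, transcript length and GC content (56753 of 60483); the others took up to 0.0522% of the counts in a library. The 37 mitochondrial genes had 0 counts throughout. Genes were filtered with filterByExpr, scaled by TMM and tested with edgeR 4.0.16 in R 4.3.3 (glmQLFit with legacy=FALSE, glmQLFTest, intercept and group, two-sided), with Benjamini-Hochberg adjustment over all 15025 tested genes and a threshold of 0.05. The common biological coefficient of variation was 0.221. Errors of log2 fold changes are standard errors. Replicates were no repeat deposits: chi-square per degree of freedom between them was at least 8.45. It was 118.5 and 82.6 for FTO siRNA 3 against FTO siRNA 1 and 2, and at most 20.4 for the other pairs. FTO siRNA 3 had the largest total, and counts in 27140 genes, against 22990 to 24927 in the other libraries. Floors cover counting error only. Shares within families use counts per kilobase of the longest transcript and an exact permutation test over libraries, with tables joined in Python 3.11.15. Reads that genes could share were gauged by 50-base words of the longest transcripts. Promoters come from RefSeq (GRCh38.p14), a build other than that of the counts, so no other coordinates are given.

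On simulated counts for this comparison, with 200 of 15025 genes changed, the same steps recovered 46% of the genes changed 2-fold and 95% of those changed 4-fold.

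The genes and lists were chosen with earlier results of these data known. ATF4, the eIF2 kinases, eIF2 alpha and its phosphatase subunits and every gene past the threshold are given in each library, other genes with groups that do not overlap by their ranges, and the rest by means, values or counts. Of each other list, up to 4 genes past the threshold with the smallest p-values are named with values, and 1 gene that meets this rule is not reported here. The genes in FTO siRNA 3 by the 2-fold measure were chosen after their values were seen. Alternatives were RLE, upper quartile and no composition scaling, no filter, at least 1 CPM in 3 libraries, DESeq2 1.42.0, limma-voom (limma 3.58.1), a fold minimum of 1.2, the earlier quasi-likelihood fit of edgeR, the replicate number as a block, removal of GC and length trends (lowess, span 0.3), and each library left out.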

Additional observations from a re-analysis of the deposited data

How the results depend on the processing

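The number of stress response genes called higher, 4 with edgeR, was 2 with library totals alone, 2 with limma-voom, 2 with a fold minimum of 1.2, 8 without a filter and 9 with DESeq2. It ran from 1 to 11 when 1 library was left out, and the number called lower from 0 to 4, the 11 and the 4 both without FTO siRNA 3. Over all genes, DESeq2 called 1029 lower, the fold minimum left 315 lower, and leaving out 1 library gave 236 to 2430 higher and 94 to 2152 lower. Calls among the 33 other pathway genes numbered 5 with the fold minimum, 2 with GC and length trends removed and 1 to 13 with 1 library left out. No pairing by replicate number was seen: same-numbered libraries deviated from their group means with correlations of -0.14, -0.06 and -0.25. Deviations of 3 libraries per group are not independent, so the correlations cannot exclude that same-numbered libraries shared a culture or batch. With the number as a replicate block, 736 genes were higher and 305 lower, 4 other pathway genes were called, and of the 29 stress response genes 4 were higher, 3 of them shared: TRIB3 lost its call (adjusted p = 0.0766) and VLDLR gained one (0.0198).

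Over 17 alternatives, 432 of 491 values of single genes kept their direction and side of the threshold, 18 lost a call (SESN2, STC2 and TRIB3), 25 gained one and 16 reversed. PPP1R15A kept its call in all 17. ATF5 reversed to -0.19 with limma-voom, -0.14 with the replicate block, -0.24 with GC and length trends removed, -0.28 without FTO siRNA 1 and -0.16 without FTO siRNA 2. PSAT1 reversed to -0.0412 with limma-voom, -0.0475 with the block and -0.53 without FTO siRNA 3, and LONP1 to -0.12 with trends removed and -0.0049 without FTO siRNA 3. Also without FTO siRNA 3, PPP1R15B was at -0.19, PHGDH at -0.52, SHMT2 at -0.12, ALDH1L2 at -0.20, PYCR1 at -0.13 and CTH at -0.28. The log2 fold change of FTO stayed between -2.29 and -1.63. Leaving out 1 library gave log2 fold changes up to 0.34 for PPP1R15B, 0.47 for ATF5, 0.52 for PHGDH, 0.36 for PSAT1, 0.49 for SHMT2, 2.54 for ALDH1L2, 0.51 for PYCR1, 1.40 for CTH and 0.18 for LONP1. Counts without length moved the PPP1R15A share difference to 19.8 points and turned that of EIF2AK4 to 0.0298. With 1 library left out the share differences ran from -1.57 to 9.12 points for PYCR1, from -4.35 to 0.481 for EIF2AK1 and from -0.634 to 0.627 for EIF2AK4. The cause of these changes was not tested. Depth limits NUPR1 and FGF21, which were below the filter.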
